A study of Mus musculus with 16 samples.

Results

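The polar and mural fragments of normal mouse blastocysts make up 4 of the 16 small RNA libraries of this series, with 2 libraries for each fragment. They were chosen by their tissue label (polar or mural) and by the treatment label WT, and all 1978 mature miRNA names of their count files were read. A blastocyst is a hollow ball of cells with the inner cell mass at one pole. Each blastocyst was cut by laser at embryonic day 4.5. The polar piece holds the inner cell mass with the trophectoderm next to it, and the mural piece is trophectoderm from the other side of the cavity. Polar against mural is thus not inner cell mass against trophectoderm. No strain, sex or allele is given for the WT embryos, and none of the treatments of the series was applied to them. The series also holds the same fragments of diapaused blastocysts, taken at EDG 7.5, and of mTORi blastocysts, treated with an inhibitor of the growth kinase mTOR, with 3 libraries for each fragment and condition. The titles of the mural mTORi libraries also hold the word diapaused, and their tissue and treatment labels were followed. These 12 libraries are used here to estimate the spread and to set the WT values beside theirs. The labels do not say how many embryos a library holds or whether polar and mural pieces that share a replicate number were cut from the same blastocysts. The p-values therefore measure only the spread between these libraries, which may be technical.

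The inner cell mass gives rise to the embryo and the yolk sac endoderm, and the trophectoderm gives rise to the placenta. miRNAs are short RNAs that guide Argonaute proteins to messenger RNAs, mainly through the seed, bases 2 to 8 counted from the 5′ end, and so lower the output of their targets. Many are cut from shared transcripts of clustered hairpins. In the mouse blastocyst and in embryonic stem cells the miR-290/miR-295 cluster is the best known of these, while the miR-302/miR-367 cluster is known from the epiblast that forms from the inner cell mass.

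The mature sequences below are those of the miRNAs that the comparison turns on, set in groups that share a seed or a cluster so that family members that went different ways can be told apart. They are from RefSeq (GRCm38.p6), which matched 89 of the 102 tested names, and are written 5′ to 3′ with the seed in capitals. The first 5 are both arms of miR-322 and miR-503 and the 5p arm of miR-351, from 1 X-linked cluster. miR-15a-5p has the seed of miR-322-5p, and miR-125a-5p has the seed of miR-351-5p.
miR-322-5p: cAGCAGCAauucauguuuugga
miR-503-5p: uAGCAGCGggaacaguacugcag
miR-351-5p: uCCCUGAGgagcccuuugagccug
miR-503-3p: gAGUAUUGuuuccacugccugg
miR-322-3p: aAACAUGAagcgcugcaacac
miR-15a-5p: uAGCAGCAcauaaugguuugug
miR-125a-5p: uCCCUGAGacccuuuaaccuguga

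The next sequences are of the miR-200 and miR-10 families and of the miR-148/miR-152 family. The members printed here have 1 seed per family, except miR-200a-3p.
miR-200b-3p: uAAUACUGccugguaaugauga
miR-200c-3p: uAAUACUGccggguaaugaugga
miR-200a-3p: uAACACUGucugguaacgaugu
miR-10b-5p: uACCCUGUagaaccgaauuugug
miR-10a-5p: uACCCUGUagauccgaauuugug
miR-148a-3p: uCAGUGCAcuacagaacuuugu
miR-148b-3p: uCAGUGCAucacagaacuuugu

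Those below are miRNAs that were at 0 or near 0 in mural libraries, from the imprinted Dlk1-Dio3 region (the first 4) and from the miR-302/miR-367 cluster, with miR-340-5p. The red blood cell miRNA miR-451a, called higher in polar fragments but with 7 and 8 mural counts, is set beside them.
miR-379-5p: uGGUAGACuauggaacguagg
miR-541-5p: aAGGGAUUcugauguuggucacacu
miR-127-3p: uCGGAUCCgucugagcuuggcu
miR-409-3p: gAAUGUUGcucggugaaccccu
miR-302b-3p: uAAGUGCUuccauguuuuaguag
miR-340-5p: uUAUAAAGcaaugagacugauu
miR-451a: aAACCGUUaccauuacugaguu

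The last group holds the leading names of the miR-290/miR-295 cluster and those of miR-17/miR-92 and paralogous clusters. miR-294-3p has the seed of miR-302b-3p.
miR-292a-5p: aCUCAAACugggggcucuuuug
miR-294-3p: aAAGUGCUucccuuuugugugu
miR-293-3p: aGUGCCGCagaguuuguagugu
miR-17-5p: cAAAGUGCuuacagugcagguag
miR-20a-5p: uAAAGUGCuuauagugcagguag
miR-93-5p: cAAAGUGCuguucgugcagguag
miR-92a-3p: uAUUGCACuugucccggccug
miR-92b-3p: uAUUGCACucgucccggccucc
miR-25-3p: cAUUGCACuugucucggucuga

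The polar libraries held 1744 and 4940 counts and the mural libraries 6435 and 8366. The mural total was thus 2.21 times the polar one. Cell number, RNA per cell and library preparation, with 12 to 20 PCR cycles, cannot be told apart from these totals. A count was recorded for 308 of the 1978 names, with 168 found in both parts, 70 only in polar libraries (200 counts in all) and 70 only in mural libraries (also 200 counts). The 102 names that passed the filter on low counts held 92.8% to 96.6% of the counts of each WT library, and the other 206 detected names shared 955 counts. Between 5 and 7 names made up 50% of a WT library. Levels are given as counts, as percentages of all miRNA counts of the library, or as CPM, counts scaled to a library of 1000000 after TMM (trimmed mean of M values) correction. A miRNA was called where edgeR's quasi-likelihood test, adjusted by the Benjamini-Hochberg method over the 102 names, gave p under 0.05. Each SE was derived from that test, as the size of the log2 difference over the square root of its F statistic. It is unreliable where a group has no count. An exact permutation test of 2 against 2 libraries cannot go below p = 0.333, so shares of groups of miRNAs are given without a test.

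The labelled parts were first set against the miRNAs known from each lineage. The miR-302/miR-367 cluster, a mark of the epiblast, had 7 and 8 counts in the polar and 0 and 0 in the mural libraries. The polar libraries were thus the only WT libraries with a count, and 0 of 14801 mural counts allows a share of up to 0.0203%. The level rests on 15 counts in all and none of the cluster's names passed the filter. No list for the trophectoderm alone was used, and the miR-290/miR-295 cluster is common to both lineages. Of the clusters known from trophoblast, Sfmbt2 overlapped between the parts, at 2.69% and 1.74% in polar and 2.32% and 2.96% in mural libraries. The other, miR-322/miR-503, held 0.401% and 0.891% in polar and 7.71% and 7.33% in mural libraries.

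The most abundant cluster held overlapping shares in the 2 parts. The miR-290/miR-295 cluster, whose miRNAs promote passage from G1 to S phase in embryonic stem cells, held 50.6% and 55.3% of the polar counts and 51.0% and 50.2% of the mural counts, by library. Of its 13 tested members 8 had a positive and 5 a negative log2 difference, the median was 0.08 beside 0.03 over all 102 names, and 0 were called by edgeR or DESeq2 (smallest edgeR adjusted p = 0.295, 0 at an unadjusted p under 0.05, beside 27 of all 102 names, or 26.5%). miR-292a-5p, the most abundant name, held 24.4% and 24.5% of polar and 23.3% and 23.2% of mural counts, a log2 difference of 0.01 (SE 0.21). miR-294-3p, second in abundance, differed by -0.13 (SE 0.18) and miR-293-3p by 0.10 (SE 0.21). The largest difference in the cluster in either direction was 1.04 on the log2 scale, in the direction of mural fragments. Among the 15 names with the highest mean level, the 3 called were miR-10b-5p, miR-503-5p and miR-200b-3p.

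**Figure D1:**
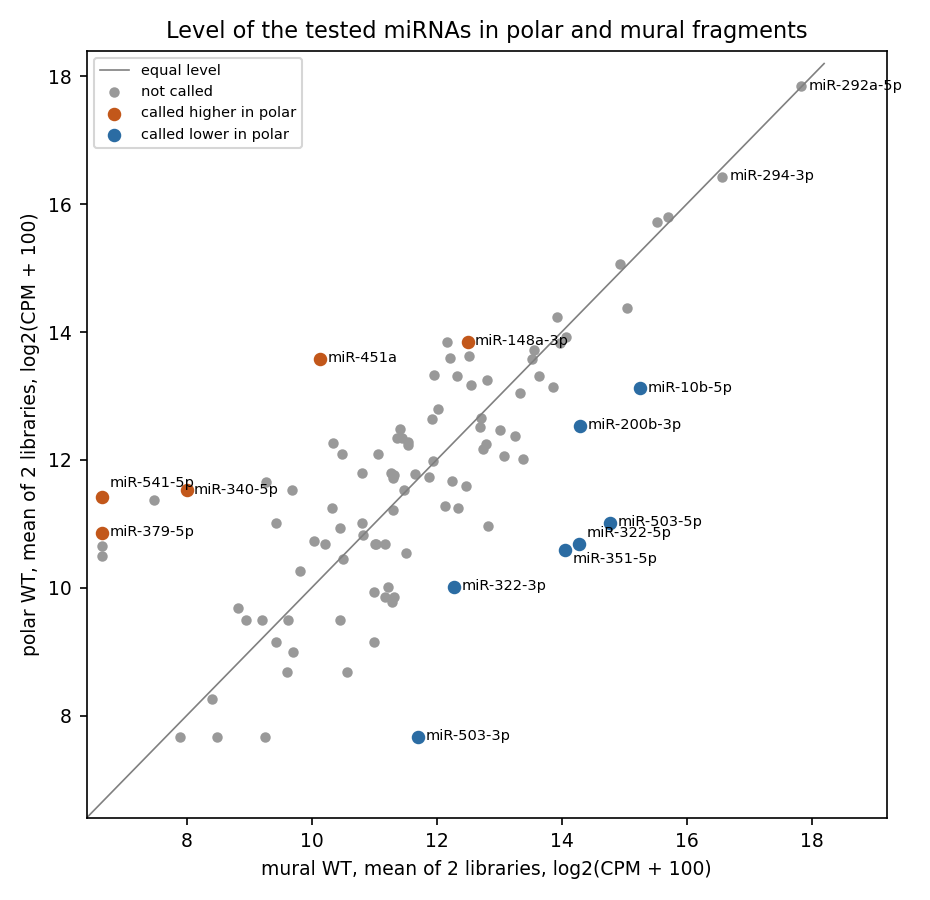
Each point is 1 of the 102 tested miRNAs, placed by its mean level in the 2 mural (horizontal) and the 2 polar WT libraries (vertical), both as log2(CPM + 100), with the line of equal level. The miR-290/miR-295 members miR-292a-5p and miR-294-3p lie on the line at the upper right, the 5 names called higher in polar fragments lie above it and the 7 called lower lie below it.

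Between the parts, 12 of 102 tested names were called (11.8%), of which 5 were higher in polar fragments (4.9%) and 7 were lower (6.86%). The 7 called lower were all 5 tested names of miR-322/miR-503 with miR-10b-5p and miR-200b-3p. Called higher were miR-148a-3p, miR-379-5p, miR-541-5p, miR-340-5p and miR-451a. In 11 of the 12 the polar and mural CPM values did not overlap, the exception being miR-451a, while over all tested names the values did not overlap in 53 (52%), with polar the higher in 26.5% and mural in 25.5%. Of the 11, miR-379-5p, miR-541-5p and miR-340-5p passed the filter only through polar libraries and miR-503-3p only through mural ones. Their lack of overlap is thus no separate support. In all, 53 names had a positive and 49 a negative difference.

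The widest difference among abundant miRNAs was in the miR-322/miR-503 cluster, whose miRNAs act on cyclins and other cell cycle genes. It held 0.401% and 0.891% of the polar counts and 7.71% and 7.33% of the mural counts, by library. Both mural libraries were far above both polar ones, and all 5 tested members fell from mural to polar, with a median log2 difference of -3.54. Of these, miR-503-3p passed the filter only through mural libraries. The 7 hairpins with a place in the annotation lie on the minus strand at chrX:53047997-53054349 (GRCm38, as are all positions here), outside annotated host genes.

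miR-503-5p had 2 and 14 counts in the polar and 178 and 235 in the mural libraries, or 1960.3 ± 1304 CPM (SD, n = 2) in polar against 27917 ± 265 CPM (SD, n = 2) in mural fragments (log2 -3.68, SE 0.90, edgeR adjusted p = 0.0129). miR-322-5p had 2 and 10 counts in the polar and 136 and 154 in the mural libraries, or 1548 ± 722 CPM (SD, n = 2) in polar against 19802 ± 1958 CPM (SD, n = 2) in mural fragments (log2 -3.54, SE 0.57, edgeR adjusted p = 0.000385). miR-351-5p had 0 and 14 counts in the polar and 113 and 137 in the mural libraries, or 1441 ± 2038 CPM (SD, n = 2) in polar against 16994 ± 862 CPM (SD, n = 2) in mural fragments (log2 -3.24, SE 0.65, edgeR adjusted p = 0.00228). In each of these 3 the lowest mural library was more than 5 times the highest polar library, and the mural replicates lay close together. The passenger strands went the same way: miR-322-3p had 2 and 4 counts in the polar and 34 and 37 in the mural libraries (log2 -2.41, SE 0.76, edgeR adjusted p = 0.0422), and miR-503-3p had 0 and 1 counts in the polar and 20 and 28 in the mural libraries (edgeR adjusted p = 0.0279). For the latter the ratio of polar to mural level was 0.0454, with an exact 95% interval of 0.00113 to 0.265 that covers counting error only. miR-503-3p passed the filter only through mural libraries, so its direction is no separate support. The call of miR-322-3p was lost with library size alone and without the filter (edgeR adjusted p = 0.0535 and 0.118). A further member, miR-542-3p, was below the filter, with 0 and 0 counts in the polar and 11 and 10 in the mural libraries, and was at least 3.21-fold higher in mural fragments when 3 counts over the group stand for 0. Leaving out any 1 WT library kept the calls of miR-322-5p and miR-351-5p, with log2 differences of -4.17 to -3.31 for the first. For miR-351-5p the difference was -2.60 without polar replicate 1 and -10.10 without polar replicate 2, where its polar count is 0 and the fitted value depends on the prior count and is no bound. The call of miR-503-5p was lost without polar replicate 1 (edgeR adjusted p = 0.0974), and those of miR-322-3p and miR-503-3p were lost without any 1 of the 4 libraries.

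Counts were also summed over names with the same seed, since such names can pair with the same sites. The seed shared by miR-322-5p, miR-15b-5p and miR-15a-5p held 0.300% ± 0.262 in polar and 2.20% ± 0.0998 in mural libraries (SD, n = 2). The other 2 names with it were not called: miR-15a-5p had 0 and 3 counts in the polar and 9 and 12 in the mural libraries (log2 -1.72, SE 0.97, edgeR adjusted p = 0.281), and miR-15b-5p had 0 and 11 counts in the polar and 1 and 12 in the mural libraries (log2 0.76, SE 1.14, edgeR adjusted p = 0.751). The seed of miR-351-5p is also that of miR-125a-5p, and together they held 1.09% ± 0.248 in polar and 3.17% ± 0.0686 in mural libraries. miR-125a-5p by itself had 22 and 31 counts in the polar and 94 and 124 in the mural libraries, and was not called (log2 -0.76, SE 0.46, edgeR adjusted p = 0.335). The seed of miR-503-5p was held by no other counted name with a RefSeq sequence.

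miR-10b-5p, from a hairpin at chr2:74726070-74726137 in introns of Hoxd3 and Hoxd4, was the most abundant of the called names. It had 14 and 50 counts in the polar and 286 and 280 in the mural libraries, or 7266 and 10295 CPM in polar and 44554 and 33485 CPM in mural libraries. Both mural libraries were above both polar ones, and the difference was log2 -2.12 (SE 0.46, edgeR adjusted p = 0.00768). Without mural replicate 1 it was -1.90 at an edgeR adjusted p = 0.0619. miR-10a-5p, which has the same seed and lies in the Hoxb region of chromosome 11, had 1 and 2 counts in the polar and 15 and 13 in the mural libraries, with no overlap, and was not called (log2 -2.07, SE 1.07, edgeR adjusted p = 0.226). The family as a whole held 0.860% and 1.05% in polar and 4.69% and 3.54% in mural libraries.

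The miR-200 family restrains the repressors ZEB1 and ZEB2 and thereby favours the epithelial state, which the trophectoderm has. It held 3.27% and 3.08% of the polar counts and 7.09% and 5.96% of the mural counts, by library. All 5 tested members were lower in polar fragments by their fitted value, at a median log2 difference of -1.20. Of these, 4 had no overlap and 1 was called in the main fit. Over all 102 names, 25.5% were lower without overlap and 6.86% were called lower. The called member, miR-200b-3p at chr4:156055681-156055750, had 9 and 34 counts in the polar and 147 and 143 in the mural libraries, or 5836 ± 1647 CPM (SD, n = 2) in polar against 20001 ± 4100.2 CPM (SD, n = 2) in mural fragments (log2 -1.74, SE 0.38, edgeR adjusted p = 0.00401). It was called with any 1 WT library left out. Its neighbour miR-200a-3p had 1 and 16 counts in the polar and 47 and 58 in the mural libraries (log2 -1.68, SE 0.61, edgeR adjusted p = 0.0780), and the passenger miR-200b-5p had 0 polar counts against 9 and 5 mural counts. miR-200c-3p, from the other genomic copy of the family on chromosome 6, was the most abundant member, with 24394 and 18119 CPM in polar and 36921 and 30735 CPM in mural libraries, and differed less (log2 -0.68, SE 0.24, edgeR adjusted p = 0.0753). With other settings both were called: miR-200a-3p by DESeq2, with the replicate block, in both fits of the 4 WT libraries alone and without polar replicate 2 (adjusted p = 0.0212 to 0.0343), and miR-200c-3p by DESeq2, in the fit of the 4 WT libraries with their own filter and without polar replicate 1 (adjusted p = 0.00859 to 0.0252). The hairpins of chromosome 4 (miR-200b, miR-200a and miR-429) summed to 0.573% and 1.19% in polar and 3.36% and 2.77% in mural libraries. The pair on chromosome 6 (miR-200c and miR-141) summed to 2.69% and 1.88% in polar and 3.73% and 3.19% in mural libraries.

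**Figure D2:**
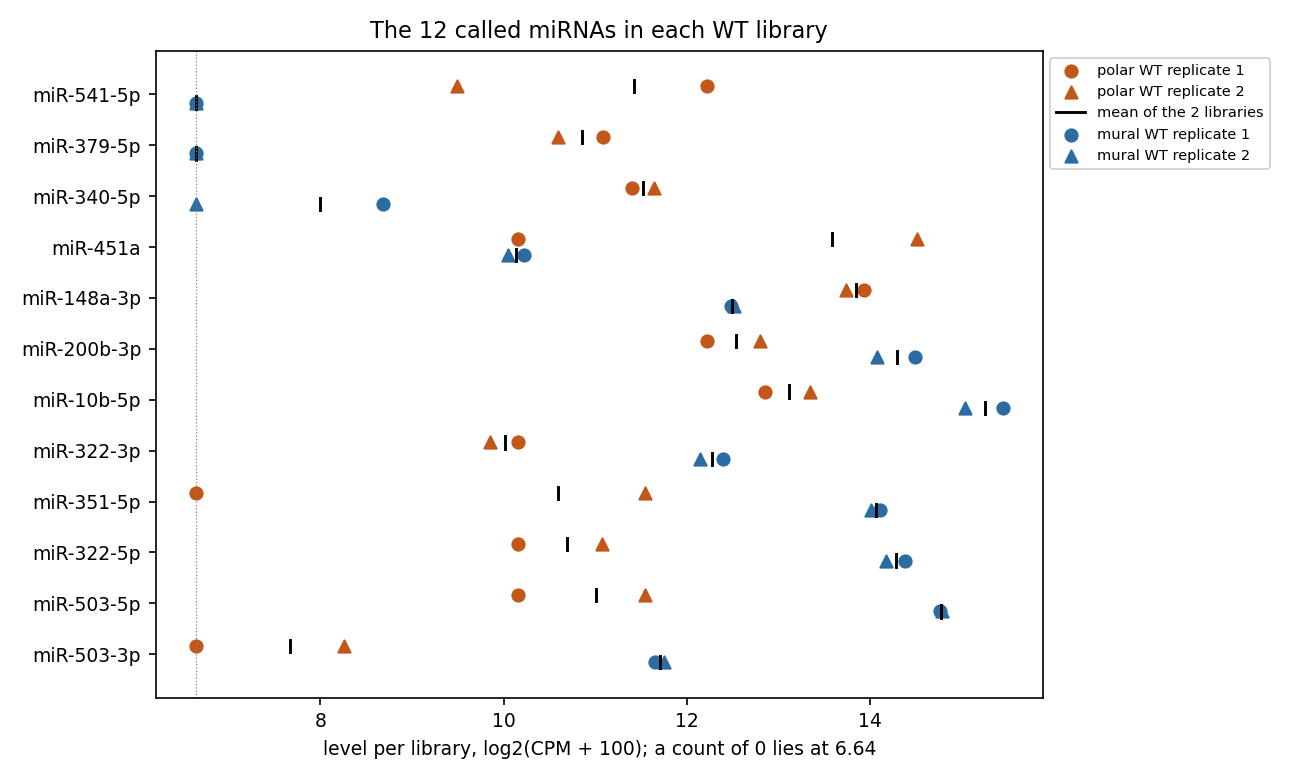
Levels of the 12 called miRNAs in each of the 4 WT libraries as log2(CPM + 100), with circles for replicate 1, triangles for replicate 2 and a black line at the level of the mean CPM of the 2 libraries. The miR-322/miR-503 members, miR-10b-5p and miR-200b-3p lie to the right in both mural libraries, while the polar point of miR-451a that stands apart is replicate 2 alone.

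On the polar side, miR-148a-3p was the most abundant called name, apart from 1 library of miR-451a. miR-148a is abundant in many differentiated tissues and is known to act on DNA methyltransferase mRNAs. It had 30 and 66 counts in the polar and 36 and 48 in the mural libraries, or 15570.3 and 13589 CPM in polar and 5608 and 5740.4 CPM in mural libraries. Both polar libraries were above both mural ones, by log2 1.35 (SE 0.27, edgeR adjusted p = 0.00228), and the call was kept with any 1 WT library left out (log2 1.21 to 1.52). It was lost in the fits that used only the 4 WT libraries (edgeR adjusted p = 0.0960 with a filter of their own and 0.0875 with the filter of all 16). miR-148b-3p, which has the same seed, was on the mural side, with 1 and 5 counts in the polar and 20 and 14 in the mural libraries, and was not called (log2 -1.46, SE 0.68, edgeR adjusted p = 0.177). The seed of both and of miR-152-3p held 1.62% ± 0.226 in polar and 0.819% ± 0.0939 in mural libraries (SD, n = 2).

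The Dlk1-Dio3 region is imprinted and transcribes its miRNAs from the maternal copy of chromosome 12. Its miRNAs held 2.47% and 1.03% of the polar counts and 0.0466% and 0.0239% of the mural counts, by library, which are 94 counts against 5. The 2 polar libraries were above both mural ones. A count was recorded for 25 of its 110 names, with 21 of them in polar libraries only, 1 in a mural library only and 3 in both. All 4 tested members had positive differences with no overlap, and 2 were called. With mural counts at or near 0 in every condition, these 4 passed the filter only through polar libraries. Their shared sign and lack of overlap are thus no separate support. miR-379-5p (chr12:109709060-109709125) had 4 and 7 counts in the polar and 0 and 0 in the mural libraries (edgeR adjusted p = 0.0158). miR-541-5p (chr12:109742409-109742498, in an intron of the noncoding gene Mirg) had 9 and 3 counts in the polar and 0 and 0 in the mural libraries (edgeR adjusted p = 0.0201). With 3 counts over the mural group in place of 0, they were at least 7.99-fold and 8.72-fold higher in polar fragments. miR-127-3p, with 5 and 2 counts in the polar and 0 and 0 in the mural libraries, and miR-409-3p, with 9 and 2 counts in the polar and 1 and 0 in the mural libraries, were not called (edgeR adjusted p = 0.0799 and 0.115). These are few counts: the call of miR-379-5p was lost without any 1 WT library, with an edgeR adjusted p of at most 0.0805, and that of miR-541-5p without polar replicate 1, mural replicate 1 or mural replicate 2, at most 0.239. The share of the region was larger in the polar library with 1744 counts than in the one with 4940.

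miR-340-5p, from an intron of Rnf130 at chr11:50069702-50069799, had 5 and 15 counts in the polar and 2 and 0 in the mural libraries, without overlap. It passed the filter only through the polar WT libraries, so its sign and lack of overlap are no separate support. The ratio of polar to mural level was 21.8, with an exact 95% interval of 5.29 to 192 for counting error only. Its edgeR adjusted p of 0.0489 was close to the threshold, and it passed it in neither of the other scalings nor with any 1 WT library left out. It also did not pass in the fit without the filter (edgeR adjusted p = 0.146).

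miR-451a, the main miRNA of red blood cells, which is matured by Argonaute 2 without Dicer, had 2 and 113 counts in the polar and 7 and 8 in the mural libraries. Polar replicate 2 thus held 113 of 115 polar counts, and replicate 1 lay within the mural values. The call (edgeR adjusted p = 0.0201) rests on that library, and without it the log2 difference was 0.09 at an edgeR adjusted p = 0.978. The list of red blood cell miRNAs had 2 and 120 counts in the polar and 7 and 8 in the mural libraries. Other lists of miRNAs known from other cells had more counts in polar replicate 2 than in the shallower replicate 1 (4940 and 1744 counts in all). The leukocyte list had 3 and 28 counts in the polar and 20 and 24 in the mural libraries. These were 0.172% and 0.567% of polar and 0.311% and 0.287% of mural counts. The endothelial list had 0 and 6 against 1 and 0 counts, and the liver list 0 and 5 against 0 and 2. The stromal list had 1 and 5 against 3 and 4, and the neural list 0 and 1 against 0 and 1. miR-142a-3p, a leukocyte miRNA below the filter, had 2 and 12 counts in the polar and 0 and 0 in the mural libraries, and the muscle list was at 0 in all 4 libraries. Together the lists of red blood cell, leukocyte, endothelial, muscle, liver, stromal and neural miRNAs took 0.344% and 3.34% of polar and 0.482% and 0.466% of mural counts. Names of the leukocyte list went different ways, as miR-146b-5p had 1 and 11 counts in the polar and 20 and 21 in the mural libraries. In polar replicate 2 the red blood cell list gave 120 of the 165 counts of these lists together. Their part in the other results was not tested.

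The miRNAs of miR-17/miR-92 and paralogous clusters promote proliferation and survival in many cell types. They held 4.47% and 2.96% of the polar counts and 1.12% and 1.39% of the mural counts, by library, with both polar libraries above both mural ones. Of 6 tested members all had a positive difference without overlap, at a median of 1.51, beside 26.5% of all 102 names. Among them miR-18a-5p, with 8 and 10 polar and 2 and 6 mural counts (log2 2.42), passed the filter only through the polar WT libraries. Its sign and lack of overlap are thus no separate support. In the main edgeR fit 0 were called (adjusted p = 0.0639 to 0.353). At an unadjusted p under 0.05 were 4, miR-18a-5p among them, beside 27 of all 102 names. In DESeq2, and in edgeR with the replicate block, miR-92a-3p, miR-17-5p and the related miR-92b-3p passed. Of these, miR-92b-3p was kept by the filter on low counts only through polar libraries. edgeR also called miR-17-5p in both fits of the 4 WT libraries alone (adjusted p = 0.0245 and 0.0366), miR-92b-3p in 1 of them, and miR-92a-3p without polar replicate 2 (adjusted p = 0.0323). miR-92a-3p had 29 and 46 counts in the polar and 30 and 39 in the mural libraries (log2 1.37, SE 0.47, edgeR adjusted p = 0.0639). miR-17-5p had 11 and 19 counts in the polar and 10 and 7 in the mural libraries (log2 1.98, SE 0.71, edgeR adjusted p = 0.0753). The shared seed of miR-93-5p, miR-20a-5p, miR-17-5p and miR-106b-5p held 1.67% ± 0.155 in polar and 0.634% ± 0.0837 in mural libraries, and that of miR-92a-3p, miR-25-3p, miR-32-5p, miR-92b-3p and miR-367-3p held 1.79% ± 0.637 in polar and 0.561% ± 0.00167 in mural libraries (SD, n = 2). By comparison, the seed of miR-294-3p, miR-295-3p, miR-291a-3p and 2 members of miR-302 held 11.1% ± 0.730 in polar and 11.1% ± 0.988 in mural libraries.

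**Figure D3:**
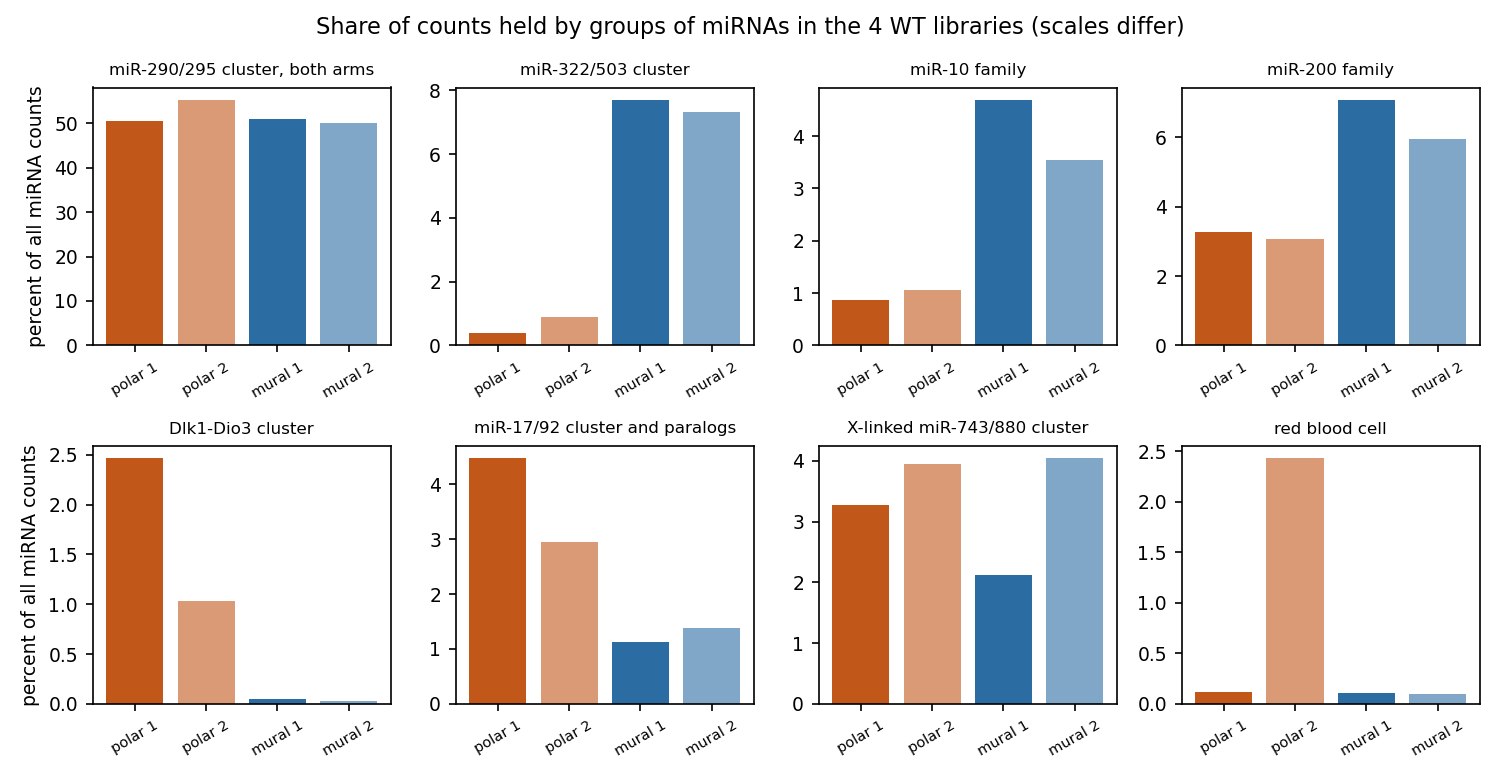
Bars give the percentage of all miRNA counts of each of the 4 WT libraries held by 8 groups of miRNAs, each panel on its own scale starting at 0. The miR-322/miR-503, miR-10 and miR-200 bars are higher in both mural libraries, the Dlk1-Dio3 and miR-17/miR-92 bars are higher in both polar libraries, and the red blood cell bar is high in polar replicate 2 alone.

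**Figure D4:**
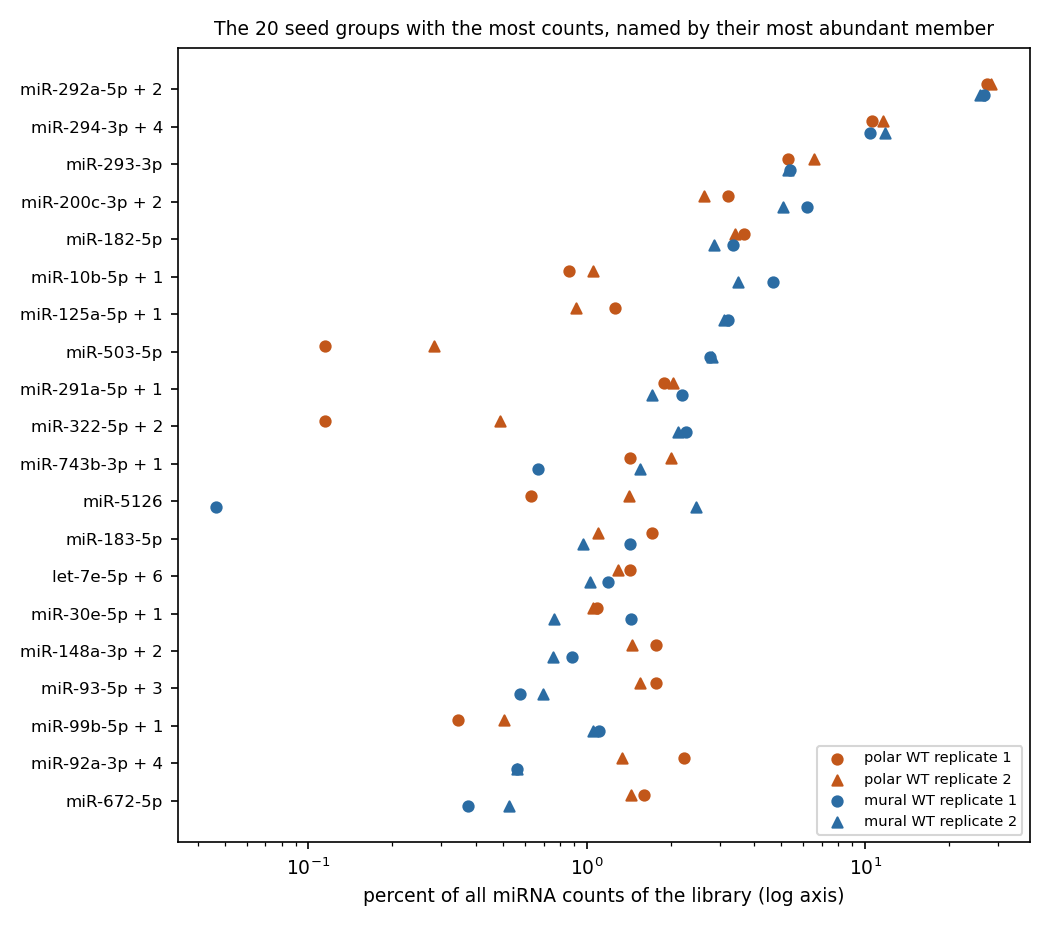
Points give the percentage of all miRNA counts per WT library, on a log axis, held by each of the 20 seed groups with the most counts; a group is named by its most abundant member and the number of other names with the seed. The 3 groups with most counts have polar and mural points close together, and the groups of miR-503-5p, miR-322-5p and miR-10b-5p have both polar points far to the left of both mural points.

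Among the names next in order of p that were not called, miR-672-5p had polar libraries close together and apart from the mural ones. This X-linked miRNA, from an intron of Nexmif, had 14532 and 14619 CPM in polar and 3739 and 5262 CPM in mural libraries (log2 1.69, SE 0.64, edgeR adjusted p = 0.0799). Its polar values were more than 2 times its mural ones. miR-92b-3p had 4 and 3 counts in the polar and 0 and 0 in the mural libraries, miR-25-3p had 4 and 9 counts in the polar and 3 and 6 in the mural libraries, and miR-328-3p had 12 and 11 counts in the polar and 8 and 12 in the mural libraries, all 3 without overlap and with edgeR adjusted p from 0.0799 to 0.118. miR-92b-3p passed the filter only through polar libraries, so its lack of overlap is no separate support. miR-674-5p, below the filter, had 1 and 9 polar counts and 0 mural counts.

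The other lists gave no call by edgeR in the main fit of all 16 libraries. Of their 40 tested names 2 were at an unadjusted p under 0.05, beside 27 of all 102 names (26.5%). These 2, miR-101b-3p and miR-672-5p, were both called by DESeq2. With the replicate block and in both fits of the 4 WT libraries alone, edgeR also called miR-672-5p (adjusted p = 0.0245 to 0.0443). The miR-183/miR-96/miR-182 cluster, known from sensory cells and stem cells, held 5.68% and 4.51% in polar and 4.90% and 3.96% in mural libraries, and its leading member miR-182-5p differed by log2 0.13 (SE 0.31). The X-linked miR-743/miR-880 cluster, known from the testis, held 3.27% and 3.95% in polar and 2.11% and 4.04% in mural libraries, and 3 of its 7 tested members were positive and 4 negative. The Sfmbt2 cluster, imprinted and known from trophoblast, held 2.69% and 1.74% in polar and 2.32% and 2.96% in mural libraries, with 3 of 3 tested members negative at a median of -0.36. The let-7 family, whose rise accompanies differentiation, held 1.43% and 1.30% in polar and 1.20% and 1.03% in mural libraries, with 4 of 5 positive at a median of 0.74. The miR-99/miR-100 with miR-125 list held 1.61% and 1.19% in polar and 2.58% and 2.62% in mural libraries. Both tested members, miR-125a-5p and miR-99b-5p, were lower in polar libraries without overlap, as were 25.5% of all 102 names. Of 14 tested members of the miR-29, miR-30, miR-15/miR-16, miR-101, miR-23/miR-27/miR-24, miR-221/miR-222 and miR-26 lists, 8 were positive and 6 negative. The lists of miR-181 and miR-34/miR-449, with at most 7 counts in a part, had no tested member. The stratified epithelial pair of miR-203-3p and miR-205-5p held 0.459% and 0.526% in polar and 0.575% and 0.634% in mural libraries.

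A limit on these family sums is that only 2 of the 53 names with 2 or more hairpins in RefSeq had any WT count, miR-92a-3p with 144 and let-7f-5p with 1, against 252 of 1626 names with 1 hairpin. Thus let-7a-5p, miR-16-5p, miR-26a-5p, miR-125b-5p and miR-181a-5p, named after their values were seen, were listed at 0 in all 4 libraries. How reads with several places were counted is not given in the sources used here.

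Hairpins on the X chromosome took 6.65% and 8.44% of polar and 10.8% and 13.1% of mural counts. Without the miR-322/miR-503 cluster the shares were 6.25% and 7.55% in polar and 3.12% and 5.73% in mural libraries. The mural libraries were thus the higher ones with that cluster and the lower ones without it, with no overlap either way. Of 48 hairpins with at least 40 WT counts, 29 gave mostly the 5p and 19 mostly the 3p arm, and the more abundant arm was the same in both parts in 48 of 48. For the hairpin of miR-295, chosen after its values were seen, the 5p arm took 16.2% of polar counts (18 of 111, exact 95% binomial interval 9.90% to 24.4%) and 29.96% of mural counts (interval 24.3% to 36.1%). Counting intervals do not hold the spread between libraries, which were at 15.8% and 16.3% in polar and 34.5% and 26.3% in mural fragments.

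A few names went with the replicate number and not with the part. miR-5126 had 11 and 70 counts in the polar and 3 and 207 in the mural libraries, and miR-2137 had 5 and 86 counts in the polar and 3 and 61 in the mural libraries, so that replicate 2 was the higher in both parts. These names, chosen after their values were seen, have G or C at 100% and 85.7% of their bases, against a median of 45.5% over the 89 tested names with a sequence. Leaving them out together with miR-6240, which had 0 and 1 polar and 1 and 18 mural counts, left the 12 calls as they were.

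The 12 called names were then set beside the same comparison in the paused blastocysts, which uses other libraries. In diapaused blastocysts, where 20.6% of the 102 names were called, all 12 had the sign they had in WT and 9 were called. All 7 of the mural side were among these, with miR-379-5p and miR-541-5p. The latter names passed the filter only through polar libraries and miR-503-3p only through mural ones, so the sign of each there is no separate support. In mTORi blastocysts, where 2.94% were called, 9 of 12 had the WT sign and miR-322-5p and miR-379-5p were called. miR-351-5p and miR-451a had the opposite sign there, and miR-340-5p had no count in either part and thus no sign. Over all 102 names, the sign was the same as in WT for 65.7% in diapaused and 62.7% in mTORi blastocysts.

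For miR-322-5p the log2 difference, polar minus mural, was -3.54 (SE 0.57) in WT blastocysts. The value was -3.08 (SE 0.41) after diapause and -1.57 (SE 0.41) under mTORi. The polar level was 1548 CPM in WT, 3227 ± 1434 CPM (SD, n = 3) in diapaused and 7043 ± 4527 CPM (SD, n = 3) in mTORi blastocysts. miR-351-5p went from -3.24 in WT and -2.21 in diapaused to 0.37 (SE 0.61) in mTORi blastocysts, where its mural level was 1782 ± 474 CPM (SD, n = 3). Whether the part difference itself differed from WT was tested as an interaction in edgeR. None of the 102 names (0%) was called for diapaused or for mTORi blastocysts, with 11 names at an unadjusted p under 0.05 in each (10.8%). The smallest adjusted p for mTORi was that of miR-351-5p, 0.0584, with a log2 difference of 3.60 (SE 0.89). DESeq2 called it. For diapaused blastocysts the smallest was 0.359, that of 4 names with miR-292a-3p first.

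miR-379-5p had no mural count in any condition, against 11 polar counts in WT, 61 in diapaused and 26 in mTORi blastocysts. For miR-10b-5p the log2 difference was -2.12, -1.17 and -1.21 in WT, diapaused and mTORi blastocysts, the last not called (edgeR adjusted p = 0.0731). For miR-148a-3p it was 1.35, 0.56 and 0.51, called in WT alone of the 3, and its interactions did not pass (edgeR adjusted p = 0.416 and 0.290). miR-451a, at 25 polar against 19 mural counts in diapaused and 8 against 17 in mTORi libraries, was not called there.

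**Figure D5:**
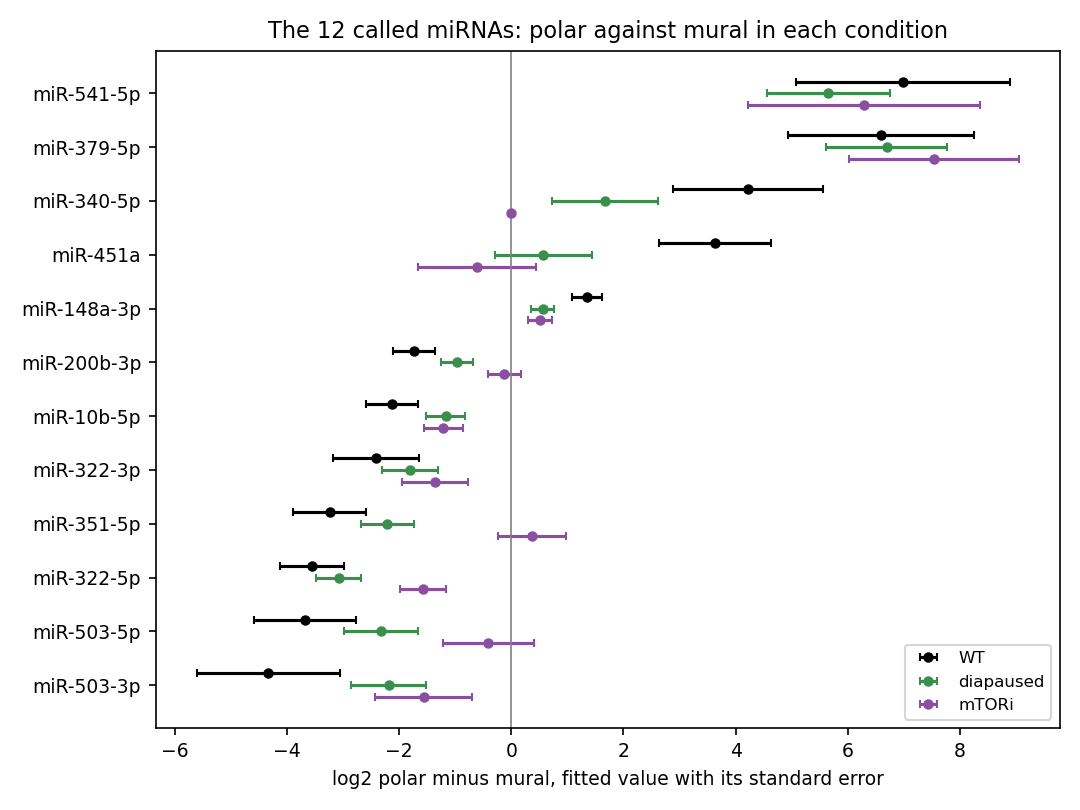
Points are fitted log2 differences, polar minus mural, of the 12 called miRNAs. WT is black, diapaused green and mTORi purple, and bars are the SE derived from the F statistic. Where a group has no count (miR-379-5p, and miR-541-5p in WT and mTORi) the fitted value depends on the prior count and is no bound. In mTORi blastocysts miR-340-5p has no count in either part. The mural-side names are below 0 in WT and diapaused blastocysts, and miR-351-5p is above 0 in mTORi.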

How the data were processed

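Small RNA of laser-cut blastocyst fragments was ligated to adapters with unique molecular identifiers, amplified with 12 to 20 PCR cycles without size selection, and read at 75 nt on a NextSeq500, per the labels' protocols. The deposited values are raw counts per mature miRNA name, which the authors had not normalized. The submitters' processing notes name the build GRCm38. Not given in the sources used here are the aligner, the counter, the annotation and any collapsing of identifiers, so intervals cover counting error only. Libraries were grouped by tissue and treatment labels, and none was left out. For the 3 mural mTORi libraries the part is given by the tissue label and not by the title.

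Counts of all 16 libraries were fitted in R 4.3.3 with edgeR 4.0.16. Settings were filterByExpr with minimum count 10 and minimum total 15, TMM factors, 6 group means and a robust quasi-likelihood fit (10 residual degrees of freedom). The fit kept edgeR's default prior count, and a prior count of 2 served only the log levels behind the correlations of replicate numbers. The fit gave 102 tested names and a common coefficient of variation of 0.376. The test was two-sided, called at an adjusted p under 0.05. Bounds against 0 use 3 counts over the group. Replicates differed beyond sampling noise, at a chi-square of 3.37 (polar WT) and 4.70 (mural WT) per degree of freedom. On data simulated for this comparison with 102 names, 76.0% of 8-fold and 7.64% of 2-fold changes were recovered, and 5.13% of calls were false. Alternatives were other scalings, no filter, fits of fewer libraries, a replicate block, DESeq2 1.42.0 and leaving out each WT library.

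The members and the 33 lists were chosen with earlier results of these data known. Named miRNAs are all called ones, the next 10 by p, the 15 most abundant, those at 0 in one part with at least 10 counts in the other, and leading tested members of the lists. Others were named after their values were seen, among them miR-18a-5p, miR-302b-3p, let-7a-5p and 4 other names at 0, miR-5126, miR-2137 and miR-6240. RefSeq sequences and hairpin places are of GRCm38.p6, and host genes are from GENCODE for the same build.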

Additional observations from a re-analysis of the deposited data

How the results depend on the processing

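Of the 12 names called between polar and mural WT fragments (5 higher, 7 lower), miR-322-5p, miR-351-5p and miR-200b-3p were called under all 13 other settings, and none of the 12 changed the sign of its WT difference. Among uncalled names with a WT difference in the report, 3 changed sign. With 1 WT library left out, miR-15b-5p (0.76) ranged from -5.79 without polar replicate 2, where its polar count is 0 and the value is no bound, over -0.0071 without mural replicate 1 to 3.06, miR-293-3p (0.10) from -0.093 to 0.27, and miR-292a-5p (0.0139) from -0.012 to 0.048. Fits of the 4 WT libraries gave miR-292a-5p -0.040 with their own filter and -0.051 with that of all 16. Without its most abundant name, the log2 ratio of polar to mural share changed sign for 6 lists: miR-148/miR-152 (1.01 to -1.10), miR-15/miR-16 (-0.72 to 0.28), miR-101 (-0.09 to 0.92), miR-30 (-0.16 to 0.035), miR-221/miR-222 (-0.41 to 0.83) and the 5p arms of miR-290/miR-295 (0.05 to -0.025). DESeq2 called 20 (10 higher) and a fit of the 4 WT libraries with the filter of all 16 gave 16 (8 higher). With a filter and fit of the 4 WT libraries 12 were called (3 higher), 8 of them among the original 12. Of the original names, miR-379-5p, miR-451a and miR-541-5p did not pass that filter and were not tested there, and miR-148a-3p was tested and not called. Leaving out 1 WT library gave 5 to 11 calls, 1 to 5 higher and 4 to 6 lower, the fewest without mural replicate 1 (1 higher, 4 lower). Without polar replicate 1 there were 8 calls (2 higher), without polar replicate 2 there were 11 and without mural replicate 2 there were 8 (3 higher). Leaving a part with 1 library assumes that it varies like the other groups. RLE size factors gave 11 calls, library size alone 10, no filter 10 and, as settings added after seeing the data, a fit that is not robust 11 and one without miR-5126, miR-2137 and miR-6240 12. The difference of the part effect between mTORi and WT, with 0 calls, had 1 call (higher, miR-351-5p) under RLE, DESeq2, the replicate block and the setting without those 3 names, 2 without a filter (1 higher, 1 lower), and 0 to 2 with 1 WT library left out (0 to 1 in each direction): 2 without polar replicate 1 and 1 without polar replicate 2. The difference between diapaused and WT had 0 to 1, the 1 being miR-351-5p (higher) without polar replicate 2. Library size scaling moved the median of that difference over all names from 0.04 to 0.40, and that of the WT comparison from 0.03 to 0.12. The causes of these shifts were not tested, beyond the loss of libraries.

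Nothing in the labels pairs the replicate numbers. Deviations of same-numbered polar and mural libraries correlated at 0.307 in WT, at -0.01 to 0.364 in diapaused and at 0.112 to 0.183 in mTORi libraries, and each library correlated best with its own number in 3 of 3 mTORi but 1 of 3 diapaused pairs. With the replicate block, 19 names were called (11 higher, 8 lower), among them the 12; the other 7 were miR-127-3p, miR-17-5p, miR-200a-3p, miR-409-3p, miR-672-5p, miR-92a-3p and miR-92b-3p.

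Depth limits the comparison: a count of 0 allows a level of up to 442 CPM in the polar and 203 CPM in the mural group.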
